A study of Saccharomyces cerevisiae with 12 samples.

Results

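The 36 genes described here encode the enzymes of glycolysis, of the fermentation of pyruvate to ethanol and acetate, and of the making and use of glycerol in the budding yeast Saccharomyces cerevisiae. They were chosen by gene name, and all 36 were measured among the 6025 genes that the tables of this study share. RNA-sequencing compared wild-type cells with set4Δ cells, in which the open reading frame of SET4, which encodes a SET domain protein of chromatin, was replaced by the HIS3MX marker. Both strains have the BY4741 background and were grown at 30 °C in the rich medium YPD, to mid-log phase, either in air or for 18 h in anaerobic pouches (hypoxia). Each of the 4 groups (wild type in air, set4Δ in air, wild type in hypoxia and set4Δ in hypoxia) held 3 libraries, which the labels give as replicates without saying whether they came from separate cultures, so p-values measure the spread between these libraries. Each strain is a single genotype of one background, and growth rate, glucose use and ethanol were not among the data analysed here.

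Glycolysis turns glucose into pyruvate, and in budding yeast most pyruvate is then decarboxylated and reduced to ethanol, even in air, as long as glucose is plentiful. Several steps are catalysed by isoenzymes encoded by different genes, of which one is abundant on glucose and others are raised as glucose runs low or under stress. Glycerol is made from a glycolytic intermediate and takes up surplus reducing power when respiration is not possible, and its reuse runs through a kinase and a mitochondrial dehydrogenase.

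Between 18786063 and 27572324 reads were assigned to genes in each library. SET4 itself was at 162, 219 and 201 normalized counts in the wild-type libraries in air and at 5363, 4962 and 8682 in hypoxia, against 0, 3.73 and 0 in air and 21.0, 16.5 and 25.9 in hypoxia in the set4Δ libraries. The 5 marker genes of mating type a summed to between 35186 and 42345 normalized counts in air and between 13335 and 25032 in hypoxia, while the 2 measured markers of mating type alpha summed to no more than 201. In hypoxia, library 3 of each genotype stood apart from the other 2 in its genes of slow growth and stress. The 10 genes of slow growth and stress fixed as a comparison list summed to 57209.7, 38799 and 124397 normalized counts in hypoxic wild-type cells and to 30829.7, 29256 and 100729 in the hypoxic set4Δ libraries, against 6661 to 8815 in air. For some of the genes and for the tests between the genotypes in hypoxia, results are therefore also given without these libraries.

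Several isoenzyme genes that share a reaction moved in opposite directions between air and hypoxia in wild-type cells. The 300 bases that end 100 bases before the start codon are shown for 4 such pairs because they set the genes that rose beside those that fell, the abundant gene first, on the strand of the gene in the RefSeq assembly R64. PDC1 with PDC6 and GPM1 with GPM2 also moved in opposite directions and are not shown. Capitals mark every match, on either strand, to the stress element AGGGG, bound by Msn2 and Msn4, and to CTTCC, the core of the element bound by Gcr1, the main activator of glycolytic genes; 5 bases are in capitals for each match unless matches overlap or adjoin.
HXK2, chrVII:23535-23834, plus strand: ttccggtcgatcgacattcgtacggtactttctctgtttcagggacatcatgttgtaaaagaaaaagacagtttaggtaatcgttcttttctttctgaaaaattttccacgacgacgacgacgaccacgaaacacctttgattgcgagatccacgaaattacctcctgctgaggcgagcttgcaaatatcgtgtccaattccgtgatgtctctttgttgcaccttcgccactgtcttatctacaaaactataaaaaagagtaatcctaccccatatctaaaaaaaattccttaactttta
HXK1, chrVI:255150-255449, minus strand: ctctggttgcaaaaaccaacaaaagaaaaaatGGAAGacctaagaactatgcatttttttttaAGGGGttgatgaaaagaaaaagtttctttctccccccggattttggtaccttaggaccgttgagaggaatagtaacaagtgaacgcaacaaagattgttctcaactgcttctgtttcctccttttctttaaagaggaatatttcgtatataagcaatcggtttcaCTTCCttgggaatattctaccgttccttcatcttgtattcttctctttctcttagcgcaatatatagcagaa
TDH3, chrVII:883911-884210, minus strand: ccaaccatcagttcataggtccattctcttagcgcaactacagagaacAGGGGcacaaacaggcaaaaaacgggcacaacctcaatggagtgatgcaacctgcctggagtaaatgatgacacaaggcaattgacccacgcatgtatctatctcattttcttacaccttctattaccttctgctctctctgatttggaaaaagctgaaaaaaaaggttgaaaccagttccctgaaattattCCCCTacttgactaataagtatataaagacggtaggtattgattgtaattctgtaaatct
TDH1, chrX:337871-338170, plus strand: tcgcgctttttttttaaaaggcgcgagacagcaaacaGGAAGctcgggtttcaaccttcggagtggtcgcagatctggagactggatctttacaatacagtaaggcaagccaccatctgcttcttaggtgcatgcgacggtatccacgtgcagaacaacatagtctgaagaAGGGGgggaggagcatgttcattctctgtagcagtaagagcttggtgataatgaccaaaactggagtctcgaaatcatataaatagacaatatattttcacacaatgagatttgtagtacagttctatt
CDC19, chrI:71386-71685, plus strand: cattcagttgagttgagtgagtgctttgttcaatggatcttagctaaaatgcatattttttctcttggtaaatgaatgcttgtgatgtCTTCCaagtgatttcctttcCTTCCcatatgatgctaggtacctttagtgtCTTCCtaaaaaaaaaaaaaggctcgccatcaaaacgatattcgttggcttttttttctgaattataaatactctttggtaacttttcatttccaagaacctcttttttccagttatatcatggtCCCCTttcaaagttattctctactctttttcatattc
PYK2, chrXV:986563-986862, minus strand: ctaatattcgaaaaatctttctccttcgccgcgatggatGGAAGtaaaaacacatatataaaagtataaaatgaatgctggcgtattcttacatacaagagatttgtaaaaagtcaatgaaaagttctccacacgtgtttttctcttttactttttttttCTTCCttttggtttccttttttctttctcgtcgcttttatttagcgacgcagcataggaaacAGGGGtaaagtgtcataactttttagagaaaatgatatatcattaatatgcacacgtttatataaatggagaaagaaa
ADH1, chrXV:160695-160994, minus strand: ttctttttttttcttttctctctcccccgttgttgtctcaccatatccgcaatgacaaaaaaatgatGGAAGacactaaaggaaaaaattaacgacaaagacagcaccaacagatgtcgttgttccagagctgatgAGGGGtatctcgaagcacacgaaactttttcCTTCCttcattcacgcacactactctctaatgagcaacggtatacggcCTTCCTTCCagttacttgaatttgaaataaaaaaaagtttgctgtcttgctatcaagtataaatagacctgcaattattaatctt
ADH5, chrII:533362-533661, plus strand: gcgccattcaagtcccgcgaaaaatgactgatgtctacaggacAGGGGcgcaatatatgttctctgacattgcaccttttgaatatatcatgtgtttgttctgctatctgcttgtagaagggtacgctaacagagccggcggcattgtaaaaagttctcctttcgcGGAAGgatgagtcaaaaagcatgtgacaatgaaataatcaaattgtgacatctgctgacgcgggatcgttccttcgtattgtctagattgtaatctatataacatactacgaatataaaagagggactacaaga

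AGGGG was present in the upstream window of 20 of the 36 genes (55.6%), compared with 23.5% of the 6001 windows of the same length in the genome. Of the 14 genes that were higher in hypoxia in wild-type cells, 11 held it, as did 6 of the 16 genes that were lower. CTTCC was in 21 of the 36 windows (58.3%, against 47.0% of all windows), in 8 of the 14 higher and in 10 of the 16 lower genes. GNGGGG, searched as a loose form of the core for the glucose repressor Mig1, was in 12 of the 36 windows (33.3%, against 15.6%). It was in 9 of the 14 higher genes and in 1 of the 16 lower genes, ADH1. Any base was allowed at N, and where N is A, as in ADH1, the match holds the stress element. These matches therefore need not be Mig1 sites, and the letters found at N were not counted. These counts describe letters in a window, and no test was made of them because the directions were known when the genes were grouped. ATTGTT, the core bound by the hypoxic repressor Rox1, was in 14 of the 36 windows (38.9%, against 31.9%), and CCAAT, bound by the Hap complex, was in 12 (33.3%, against 43.9%). 

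Transcripts of the 36 genes took up 12.3% to 14.2% of all reads assigned to genes in the 6 libraries grown in air and 2.88% to 5.14% in the 6 grown in hypoxia. Per kb of coding sequence, the highest levels in wild-type cells in air were those of TDH3, at 502957 ± 14776 normalized counts per kb (SD, n = 3), ENO2, at 331871 ± 15305, and PDC1, at 275669.9 ± 10872. The lowest was that of PDC6, at 49.9 ± 3.93. In hypoxia the 3 highest levels per kb in wild-type cells were those of TDH3, at 67317 ± 24386, PDC1, at 66712 ± 8722, and ADH1, at 60304 ± 24955, whose spreads overlapped, and the cytosolic aldehyde dehydrogenase gene ALD6, at 52804 ± 6952, was the fifth after FBA1. In hypoxic set4Δ cells ALD6 had the highest mean level per kb, at 56392 ± 5144. ADH1 followed, at 49867 ± 25971, then PDC1, at 47722 ± 906, and TDH3, at 39477 ± 18093. The spreads of ADH1 and TDH3 overlapped each other and those of ALD6 and PDC1. That order did not hold in hypoxic set4Δ library 3, where ADH1, at 79836, and TDH3, at 60367, were above ALD6, at 50955. All values are relative to the other transcripts in a library, so a lower value need not mean fewer transcripts per cell. RNA was taken from whole cultures, so fewer transcripts per cell and fewer cells that make them cannot be told apart either.

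**Figure D1:**
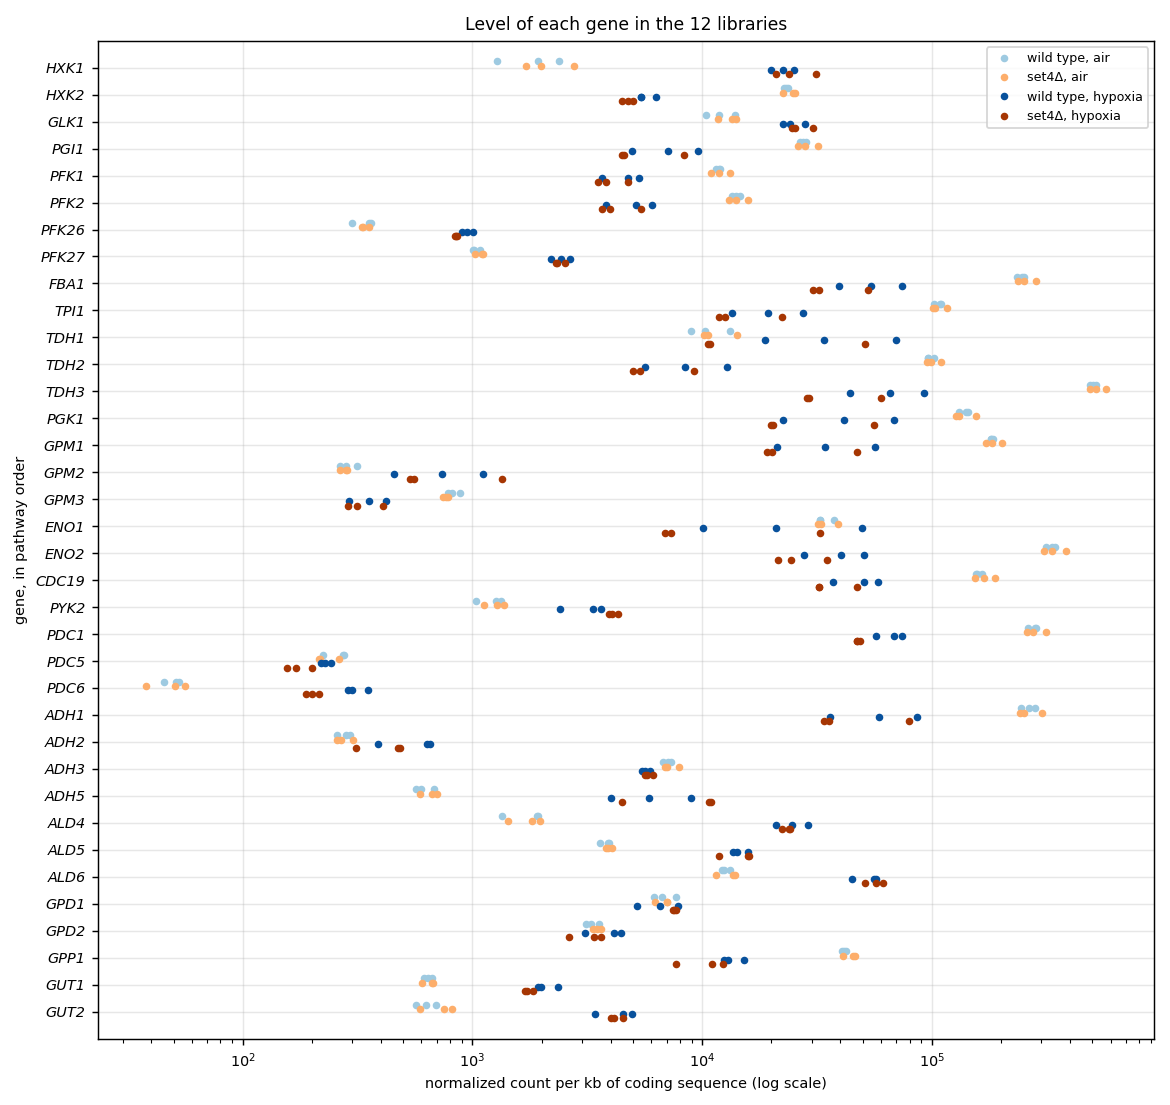
Normalized count per kb of coding sequence on a log scale (x axis) of each of the 36 genes (y axis, in pathway order), with 1 point for each of the 12 libraries, coloured by group. The abundant glycolytic genes lie to the left in hypoxia of where they lie in air, HXK1, ADH5 and ALD4 lie to the right, and the points of both genotypes in air fall on each other.

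The first question was how these genes differed between hypoxia and air in wild-type cells. A gene was called where limma's test gave an adjusted p of at most 0.05 and a log2 fold change of 1 or more up or down. Of the 36 genes, 14 were higher in hypoxia and 16 were lower, compared with 18.1% of all 6033 genes tested that were higher and 14.4% that were lower. Over the 36 genes the log2 fold changes had a median of -0.24, against 0.0066 over all genes, and single genes ranged from -3.54 (TDH2) to 3.85 (ALD4). In set4Δ cells 13 of the 36 genes were higher and 17 lower, compared with 18.6% and 15.5% of all 6058 genes tested. The same 13 genes were higher and the same 16 genes were lower in both genotypes, TDH1 was called in wild-type cells only and ENO1 in set4Δ cells only. The difference between the genotypes was tested separately and is given after the pathway.

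**Figure D2:**
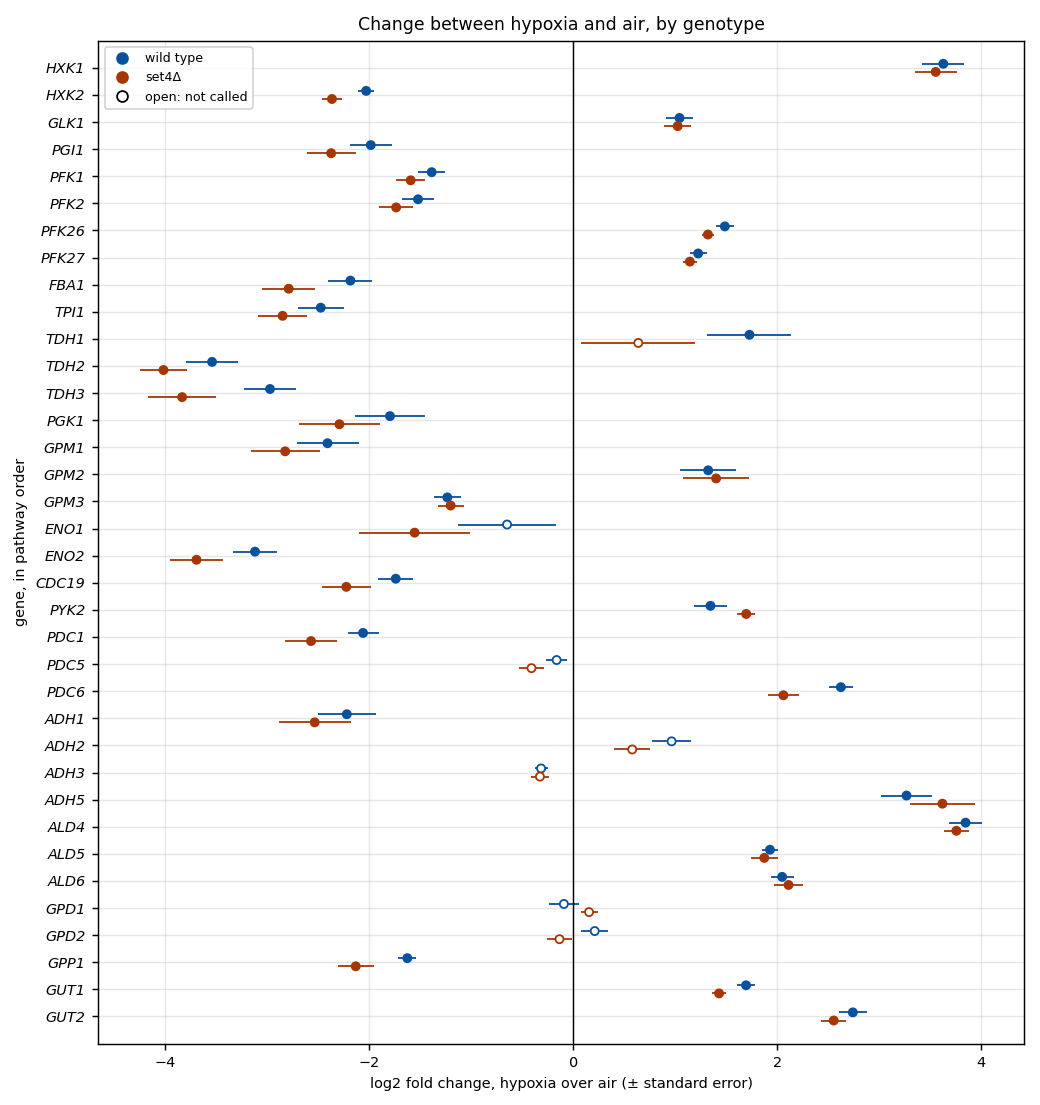
Log2 fold change between hypoxia and air (x axis, with its standard error) of each of the 36 genes (y axis, in pathway order) in wild-type cells and in set4Δ cells. Filled points passed the test in that genotype and open points did not, and ENO2, TDH2 and TDH3 lie farthest to the left while HXK1, ADH5 and ALD4 lie farthest to the right.

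The first reaction, the phosphorylation of glucose, is carried out by the hexokinases Hxk1 and Hxk2 and the glucokinase Glk1. HXK2, the main kinase during growth on glucose, was at 33739.6, 34627 and 33211 normalized counts in the wild-type libraries in air and at 9198, 7948 and 7879 in hypoxia, and at 36456, 37155 and 32805 in air and 6948, 6515 and 7290.3 in hypoxia in the set4Δ libraries. Every hypoxic library was below every library in air, and the log2 fold change was -2.03 (SE 0.082, adjusted p = 2.52e-07) in wild-type and -2.37 (SE 0.098, adjusted p = 5.36e-07) in set4Δ cells. HXK1 was at 1867, 3480.1 and 2802 in the wild type in air and at 36687, 29037 and 32714 in hypoxia, with 2911, 4027 and 2498 in air and 34749.7, 30465 and 45492 in hypoxia in set4Δ. It had risen 12.4-fold in wild-type cells (log2 fold change 3.63, SE 0.21, adjusted p = 1.22e-06) and 11.7-fold in set4Δ cells (log2 fold change 3.55, SE 0.21, adjusted p = 2.53e-06), with no overlap between groups. GLK1 was at 15657, 20987 and 17764 in air and 42170.1, 33811 and 36189 in hypoxia in wild-type and at 21127, 20266 and 17608 in air and 38209, 36997 and 45567 in hypoxia in set4Δ cells. Its log2 fold changes of 1.04 (SE 0.13, adjusted p = 0.000108) and 1.02 (SE 0.13, adjusted p = 0.000195) lay just past the fold threshold, and in the wild type it fell to 0.94 without library 1 in air and 0.95 without hypoxic library 1, and in set4Δ to 0.95 without library 3 in air and 0.93 without hypoxic library 3. GLK1 overlaps the annotated reading frame YCL042W on the same strand, so reads there could belong to either.

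The exchange among the 3 kinases is clearest as a ratio within a library, which does not depend on how libraries were scaled. The ratio of HXK1 to HXK2 per kb was 0.0554, 0.101 and 0.0845 in the wild-type libraries in air and 4.0, 3.66 and 4.16 in hypoxia. In set4Δ it was 0.0800, 0.109 and 0.0763 in air and 5.01, 4.69 and 6.25 in hypoxia, so that HXK1 was the lesser transcript in all 6 libraries in air and the greater one in all 6 in hypoxia. HXK2 made up 62.6% ± 3.61 of the summed level of the 3 genes per kb in wild-type cells in air and 10.8% ± 0.520 in hypoxia. Over the same change HXK1 went from 4.97% ± 1.17 to 42.4% ± 0.807 and GLK1 from 32.4% ± 2.46 to 46.8% ± 0.404. The summed level of the 3 genes per kb was 37105 ± 2687 in air and 53092 ± 5922 in hypoxia in wild-type cells (mean ± SD, n = 3).

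The enzymes from glucose 6-phosphate to the triose phosphates are each encoded by a single gene, apart from phosphofructokinase, which has an alpha subunit (PFK1) and a beta subunit (PFK2). All 5 genes of this stretch were lower in hypoxia in both genotypes. TPI1, triose phosphate isomerase, was at 82063, 81272 and 76594 in the wild type in air and 14506, 10103 and 20509 in hypoxia, a log2 fold change of -2.48 (SE 0.22, adjusted p = 1.64e-05). FBA1, the aldolase, was at 266562, 272321 and 254722 in air and 58702, 42438 and 79982 in hypoxia, a log2 fold change of -2.18 (SE 0.22, adjusted p = 2.83e-05), and was at 271265, 306152 and 256665 in air and 32868, 34922 and 57109 in hypoxia in set4Δ cells, a log2 fold change of -2.79 (SE 0.26, adjusted p = 3.06e-05). PGI1, the isomerase, had log2 fold changes of -1.98 (SE 0.21, adjusted p = 4.02e-05) and -2.37 (SE 0.24, adjusted p = 4.46e-05) in wild-type and set4Δ cells. None of the groups of these genes overlapped between air and hypoxia.

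The subunit genes of phosphofructokinase changed least of the 5. The log2 fold change of PFK1 was -1.39 (SE 0.13, adjusted p = 2.29e-05) in wild-type and -1.59 (SE 0.14, adjusted p = 2.26e-05) in set4Δ cells, and that of PFK2 was -1.52 (SE 0.16, adjusted p = 3.66e-05) and -1.74 (SE 0.17, adjusted p = 3.38e-05). With quantile normalization, which shifts the median log2 fold change of all genes to -0.14, the wild-type value of PFK1 was -0.95 and no longer reached the fold threshold. The subunits stayed close to each other, with a ratio of PFK2 to PFK1 per kb of 1.19, 1.22 and 1.17 in wild-type libraries in air and 1.09, 1.04 and 1.14 in hypoxia. The kinases Pfk26 and Pfk27 make the allosteric activator of phosphofructokinase, and their genes moved the other way. PFK26 was at 744, 899 and 882 in the wild type in air and 2494, 2235 and 2358 in hypoxia (log2 fold change 1.49, SE 0.088, adjusted p = 1.47e-06), and PFK27 was at 1195, 1216 and 1287 in air and 2617, 2899 and 3190.1 in hypoxia (log2 fold change 1.22, SE 0.083, adjusted p = 3.02e-06). In set4Δ cells the log2 fold changes were 1.32 (SE 0.062, adjusted p = 9.68e-07) for PFK26 and 1.14 (SE 0.070, adjusted p = 3.50e-06) for PFK27. The ratio of PFK27 to PFK26 overlapped between air (3.34, 2.81 and 3.04) and hypoxia (2.18, 2.70 and 2.81) in wild-type cells, where the overlap rests on 1 library in each group with nearly the same ratio. In set4Δ it did not overlap, at 3.12, 3.11 and 3.31 in air and 2.99, 2.76 and 2.70 in hypoxia.

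Glyceraldehyde-3-phosphate dehydrogenase is encoded by TDH1, TDH2 and TDH3, and the families of this lower part of glycolysis held both the deepest falls and the least uniform values. TDH3, the most abundant of the 36 transcripts in air, was at 501536, 517652 and 488173 in wild-type libraries in air and 65500.4, 43809 and 92439 in hypoxia (log2 fold change -2.97, SE 0.25, adjusted p = 1.12e-05), and at 516779, 574628 and 488129 in air and 29288, 28717 and 60306 in hypoxia in set4Δ (log2 fold change -3.83, SE 0.33, adjusted p = 1.99e-05). TDH2 was at 96593, 102323 and 96164 in air and 8438, 5631 and 12843 in hypoxia in the wild type, with the lowest log2 fold change of the 36 genes, -3.54 (SE 0.26, adjusted p = 4.38e-06), and had one of -4.02 (SE 0.23, adjusted p = 2.30e-06) in set4Δ. TDH1, known from nongrowing and stressed cells, was at 8969.7, 13193 and 10264 in the wild type in air and at 33930.5, 18843 and 69858 in hypoxia, and at 10635, 14206 and 10152 in air and 10849, 10639.7 and 50867 in hypoxia in set4Δ cells. All 3 hypoxic wild-type libraries were above those in air (log2 fold change 1.73, SE 0.41, adjusted p = 0.00482), whereas 2 of the 3 hypoxic set4Δ libraries were at the level in air and library 3 was far above it (log2 fold change 0.64, SE 0.56, adjusted p = 0.319, not called). Without hypoxic library 3 the log2 fold change of TDH1 was 1.24 (SE 0.23, adjusted p = 0.000872) in wild-type and -0.11 (SE 0.12, adjusted p = 0.403) in set4Δ cells.

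Per kb, TDH1 was at 0.0179, 0.0255 and 0.0210 of the level of TDH3 in the wild-type libraries in air and at 0.518, 0.430 and 0.756 in hypoxia, and at 0.0206, 0.0247 and 0.0208 in air and 0.370, 0.370 and 0.843 in hypoxia in the set4Δ libraries. Its share of the summed level of the 3 genes per kb went from 1.76% ± 0.305 to 33.0% ± 6.29 in wild-type and from 1.81% ± 0.190 to 30.0% ± 10.6 in set4Δ cells. The ratio of TDH2 to TDH3, which share 95.8% of the bases of their coding sequences, was 0.193, 0.198 and 0.197 in air and 0.129, 0.129 and 0.139 in hypoxia in the wild type. Of the bases of the coding sequence, 34.5% in TDH1, 58.6% in TDH2 and 52.7% in TDH3 lie in 50-base words that occur elsewhere in the genome. How reads from such stretches were counted is not stated in the labels or the methods, so the values of single TDH genes carry that uncertainty.

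PGK1, phosphoglycerate kinase, was at 175439, 180415 and 163998 in the wild type in air and 51877, 28106 and 85942 in hypoxia (log2 fold change -1.80, SE 0.35, adjusted p = 0.00155), and at 163493, 195036 and 159714 in air and 25381, 24850.3 and 69808 in hypoxia in set4Δ (log2 fold change -2.29, SE 0.39, adjusted p = 0.000911). Library 3 had the highest of the 3 hypoxic values in each genotype. GPM1, the phosphoglycerate mutase, was at 134394, 137624 and 134014 in air and 25412, 15710.1 and 41969.9 in hypoxia in wild-type cells (log2 fold change -2.41, SE 0.30, adjusted p = 0.000124) and at 135894, 150129.5 and 128414 in air and 14928, 14254 and 35222 in hypoxia in set4Δ (log2 fold change -2.82, SE 0.34, adjusted p = 0.000113). GPM2 and GPM3 resemble GPM1 but are not known to carry the mutase activity of the cell, and in wild-type cells in air GPM1 made up 99.4% ± 0.0217 of the summed level of the 3 genes per kb. GPM2 was at 248, 294 and 263 in wild-type libraries in air and 687, 428 and 1040.0 in hypoxia (log2 fold change 1.32, SE 0.28, adjusted p = 0.00241), and GPM3 was at 803, 741 and 714 in air and 325, 265 and 382 in hypoxia (log2 fold change -1.23, SE 0.13, adjusted p = 4.75e-05). In set4Δ the log2 fold changes were 1.40 (SE 0.32, adjusted p = 0.00428) for GPM2 and -1.2 (SE 0.13, adjusted p = 5.73e-05) for GPM3. Without hypoxic library 3 of set4Δ, that of GPM2 was 0.97, under the fold threshold. In hypoxic wild-type cells GPM1 made up 96.9% ± 0.391.

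Enolase is encoded by ENO1 and ENO2, which share 94.8% of the bases of their coding sequences. In each, 56.3% of the bases lie in 50-base words found elsewhere in the genome. ENO2, the form of cells growing on glucose, was at 440216, 453799.9 and 414221 in the wild type in air and 52778, 36462 and 66288 in hypoxia (log2 fold change -3.12, SE 0.21, adjusted p = 3.06e-06), and at 436140.3, 502846 and 403050.0 in air and 28199.7, 32006 and 45969 in hypoxia in set4Δ (log2 fold change -3.69, SE 0.26, adjusted p = 6.44e-06). ENO1 was at 42753, 49164 and 42949.6 in air and 27519, 13243 and 65062 in hypoxia in wild-type cells, where hypoxic library 3 was above all libraries in air and the other two were below them (log2 fold change -0.65, SE 0.48, adjusted p = 0.242, not called). In set4Δ it was at 43458, 51164 and 41863 in air and 9601, 9029 and 43013 in hypoxia, and the groups overlapped although the gene was called lower (log2 fold change -1.55, SE 0.55, adjusted p = 0.0301). That call was lost without any one of the libraries in air or of hypoxic libraries 1 and 2 (adjusted p between 0.0714 and 0.0933), and edgeR's test on the recovered reads gave a log2 fold change of -1.12 (adjusted p = 0.106). Without hypoxic library 3 the log2 fold change of ENO1 was -1.24 (SE 0.25, adjusted p = 0.00132) in wild-type and -2.29 (SE 0.10, adjusted p = 1.97e-10) in set4Δ cells, so that both fell once that library was left out. The ratio of ENO1 to ENO2 per kb was 0.0971, 0.108 and 0.104 in the wild-type libraries in air and 0.521, 0.363 and 0.982 in hypoxia, and 0.0996, 0.102 and 0.104 in air and 0.340, 0.282 and 0.936 in hypoxia in set4Δ, higher in every hypoxic library than in any library in air.

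Pyruvate kinase, the last step, is encoded by CDC19 and by the minor gene PYK2, whose product does not need the activator that Cdc19 responds to. CDC19 was at 236340.2, 248414 and 234308 in the wild type in air and 76456, 55891 and 87442 in hypoxia (log2 fold change -1.74, SE 0.17, adjusted p = 2.98e-05), while PYK2 was at 1573, 1932 and 2021 in air and 5524, 5074 and 3643 in hypoxia (log2 fold change 1.35, SE 0.16, adjusted p = 9.00e-05). In set4Δ cells CDC19 was at 253719, 283354 and 231975 in air and 48334, 48321 and 71028 in hypoxia (log2 fold change -2.22, SE 0.24, adjusted p = 6.48e-05) and PYK2 at 2083, 1952 and 1706 in air and 6535, 6159 and 5956 in hypoxia (log2 fold change 1.70, SE 0.090, adjusted p = 1.73e-06). The ratio of PYK2 to CDC19 per kb was below 0.01 in all 6 libraries in air. It was 0.0714, 0.0897 and 0.0412 in the hypoxic wild-type and 0.134, 0.126 and 0.0829 in the hypoxic set4Δ libraries, and CDC19 remained the greater transcript throughout.

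Pyruvate decarboxylase commits pyruvate to fermentation, and PDC1 encodes nearly all of it. PDC1 was at 473886, 479934 and 445480.5 in the wild type in air and 115701, 96912 and 126018 in hypoxia (log2 fold change -2.06, SE 0.15, adjusted p = 4.95e-06), and at 465630.1, 529116 and 440779 in air and 79698, 82505 and 80033 in hypoxia in set4Δ (log2 fold change -2.57, SE 0.25, adjusted p = 3.98e-05). PDC5, which can stand in for PDC1 when that gene is lost, was at 467, 462 and 377 in air and 409, 372 and 387 in hypoxia in wild-type cells (log2 fold change -0.16, SE 0.10, adjusted p = 0.181, not called) and had a log2 fold change of -0.41 (SE 0.12, adjusted p = 0.0166) in set4Δ, under the fold threshold. PDC6, a minor gene known from sulfur limitation, was at 89.7, 76.9 and 86.6 in the wild type in air and 504, 595 and 486 in hypoxia (log2 fold change 2.62, SE 0.12, adjusted p = 3.80e-07), and at 85.6, 64.3 and 94.8 in air and 340.3, 364 and 319 in hypoxia in set4Δ (log2 fold change 2.06, SE 0.15, adjusted p = 9.26e-06). Every hypoxic library was above every library in air. The rise did not change which gene dominated, since PDC1 made up 99.2% ± 0.153 of the summed level of the 3 genes per kb in hypoxic wild-type cells, PDC6 0.474% ± 0.118 and PDC5 0.345% ± 0.0377. PDC1 and PDC5 share 87.2% of their bases. In each, 3.84% of the bases lie in 50-base words that occur elsewhere in the genome. PDC1 was far more abundant, so a small share of its reads could weigh on PDC5.

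Alcohol dehydrogenase 1 reduces acetaldehyde to ethanol in the cytosol, Adh2 is the glucose-repressed enzyme that oxidises ethanol, Adh3 is mitochondrial, and Adh5 is a further, minor ethanol-forming enzyme. ADH1 was at 278544, 293201 and 256069 in the wild type in air and 61851, 37677 and 89886 in hypoxia (log2 fold change -2.22, SE 0.28, adjusted p = 0.000131), and at 264660.1, 316786 and 254354 in air and 35529, 37516 and 83589 in hypoxia in set4Δ (log2 fold change -2.53, SE 0.35, adjusted p = 0.000272). ADH5 was at 600.5, 717 and 632 in the wild type in air and at 6174, 9452 and 4228 in hypoxia (log2 fold change 3.27, SE 0.25, adjusted p = 6.14e-06), and at 738, 707 and 625 in air and 11589, 11279 and 4722 in hypoxia in set4Δ (log2 fold change 3.62, SE 0.32, adjusted p = 2.21e-05). The groups did not overlap, but hypoxic library 3 had the lowest value of ADH5 and the highest value of ADH1 in each genotype. The ratio of ADH5 to ADH1 per kb was 0.00214, 0.00242 and 0.00245 in the wild-type libraries in air and 0.0990, 0.249 and 0.0466 in hypoxia, and 0.323, 0.298 and 0.0560 in the hypoxic set4Δ libraries. ADH5 thus made up 9.96% ± 6.85 of the summed level of the 4 genes per kb in hypoxic wild-type cells, compared with 0.227% ± 0.0167 in air.

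ADH2 was at 308, 295 and 269 in the wild type in air and 666, 683 and 408 in hypoxia (log2 fold change 0.96, SE 0.19, adjusted p = 0.00178), just under the fold threshold. It was past that threshold without library 1 in air (1.01), without hypoxic library 3 (1.21), with libraries scaled to equal totals (1.05) and in edgeR's test on the recovered reads (1.02). The log2 fold change in set4Δ was 0.58 (SE 0.17, adjusted p = 0.016). ADH3 was the steadiest member of the family, at 7996, 8227 and 7649 in air and 6391, 6202 and 6668 in hypoxia in wild-type cells (log2 fold change -0.32, SE 0.064, adjusted p = 0.00197) and with a log2 fold change of -0.33 (SE 0.086, adjusted p = 0.00861) in set4Δ. ADH1 and ADH2 share 88.8% of their bases. In each, 18.1% of the bases lie in 50-base words found elsewhere in the genome, so a small share of the reads of the abundant ADH1 could weigh on ADH2.

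**Figure D3:**
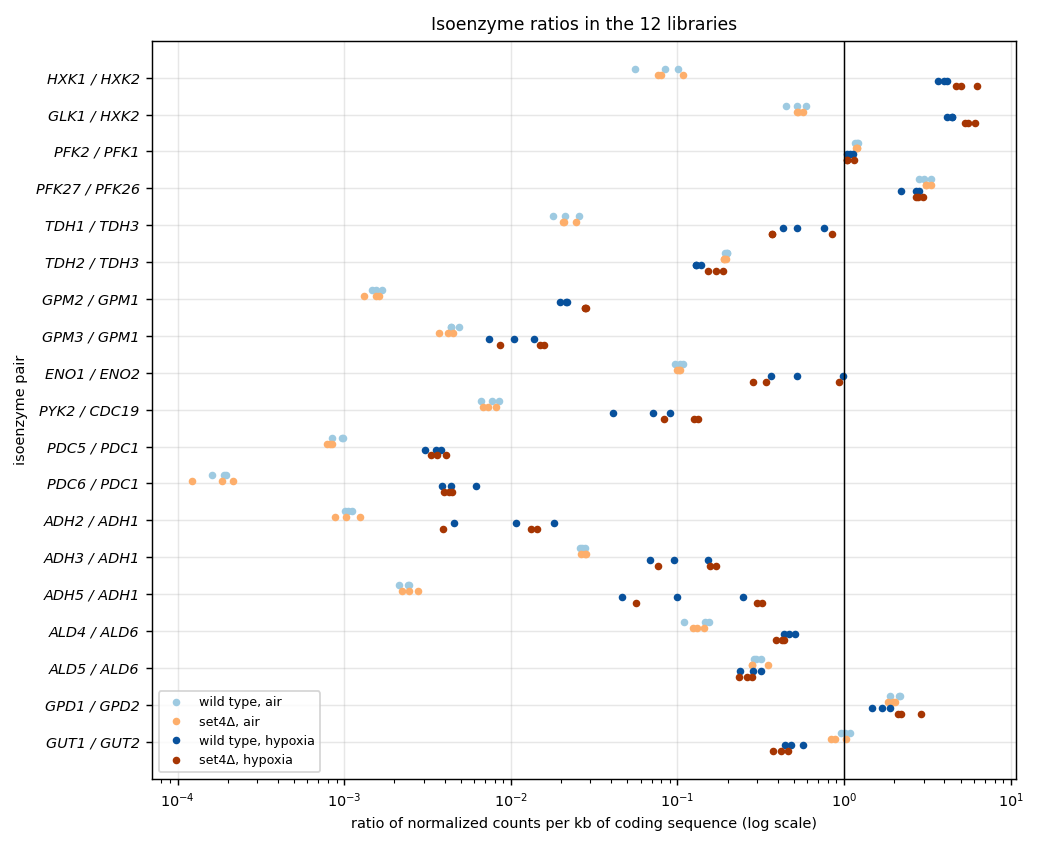
Ratio of normalized counts per kb of coding sequence between the genes of 19 isoenzyme pairs (y axis), on a log scale (x axis), with 1 point for each of the 12 libraries, coloured by group, and a line at equal levels. HXK1 and GLK1 cross that line against HXK2 between air and hypoxia, ADH5, PDC6 and TDH1 move far to the right but stay below it, and PFK2 over PFK1 and ALD5 over ALD6 hardly move.

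Acetaldehyde can also be oxidised to acetate, by the mitochondrial enzymes Ald4 and Ald5 and the cytosolic enzyme Ald6. All 3 genes were higher in hypoxia in both genotypes, and no groups overlapped. ALD4 had the largest rise of the 36 genes, from 2102, 2996 and 2992 in the wild-type libraries in air to 45249, 38353 and 32748 in hypoxia (log2 fold change 3.85, SE 0.16, adjusted p = 3.24e-07), and from 3069, 2827 and 2234 to 37225, 37663 and 34694 in set4Δ (log2 fold change 3.76, SE 0.13, adjusted p = 2.21e-07). ALD6 was at 18409.8, 19860.0 and 18754 in air and 86267, 84483 and 67344 in hypoxia in the wild type (log2 fold change 2.05, SE 0.11, adjusted p = 1.0e-06), and had a log2 fold change of 2.11 (SE 0.14, adjusted p = 5.86e-06) in set4Δ. ALD5 was at 6063, 6153 and 5644 in air and 21289, 24823 and 22257 in hypoxia in the wild type (log2 fold change 1.93, SE 0.080, adjusted p = 2.89e-07), with a log2 fold change of 1.87 (SE 0.13, adjusted p = 6.62e-06) in set4Δ. ALD6 kept the largest part of the summed level of the 3 genes per kb, 69.6% ± 0.462 in air and 57.2% ± 1.10 in hypoxia in wild-type cells, while ALD4 went from 9.48% ± 1.56 to 26.9% ± 1.87. The ratio of ALD5 to ALD6 overlapped between air and hypoxia in both genotypes. The summed level of the 3 genes per kb was 18184 ± 812 in air and 92246 ± 10704 in hypoxia in wild-type cells, whereas that of the 3 pyruvate decarboxylase genes was 275977 ± 10900.0 and 67254 ± 8694 (mean ± SD, n = 3).

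Glycerol is made by the dehydrogenases Gpd1, known from osmotic stress, and Gpd2, known from growth without oxygen, followed by the phosphatase Gpp1. Neither GPD1 nor GPD2 was called. GPD1 was at 7253, 9053 and 7859 in the wild type in air and 9222, 7676 and 6095 in hypoxia (log2 fold change -0.092, SE 0.15, adjusted p = 0.586), and GPD2 was at 4334, 4718 and 4122 in air and 5495, 5889 and 4087 in hypoxia (log2 fold change 0.21, SE 0.13, adjusted p = 0.176). In set4Δ the log2 fold changes were 0.15 (SE 0.084, adjusted p = 0.122) for GPD1 and -0.13 (SE 0.12, adjusted p = 0.34) for GPD2. A value that misses the threshold does not show that the level stayed the same. GPP1 was lower in hypoxia, at 31964, 31337 and 30726 in the wild type in air and 9777, 11479 and 9421 in hypoxia (log2 fold change -1.63, SE 0.090, adjusted p = 1.01e-06), and with a log2 fold change of -2.13 (SE 0.18, adjusted p = 1.59e-05) in set4Δ.

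The genes of glycerol use rose. GUT1, the glycerol kinase, was at 1314, 1419 and 1364 in the wild type in air and 5009, 4241 and 4110.0 in hypoxia (log2 fold change 1.69, SE 0.085, adjusted p = 6.68e-07). GUT2, the mitochondrial glycerol 3-phosphate dehydrogenase, was at 1113, 1354 and 1229.9 in air and 9612, 8798 and 6642 in hypoxia (log2 fold change 2.74, SE 0.14, adjusted p = 6.68e-07). In set4Δ the log2 fold changes were 1.43 (SE 0.072, adjusted p = 1.36e-06) for GUT1 and 2.55 (SE 0.12, adjusted p = 1.02e-06) for GUT2, and no groups overlapped. The ratio of GUT1 to GUT2 per kb was 1.08, 0.960 and 1.02 in air and 0.477, 0.441 and 0.566 in hypoxia in the wild type.

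Across the 19 isoenzyme ratios, 16 did not overlap between air and hypoxia in wild-type cells and 18 did not in set4Δ cells. Ratios that share a gene are not independent of each other. Single genes gave a like picture, since the libraries in air and in hypoxia did not overlap for 82.7% of all genes in the wild type and for 83.0% in set4Δ. Of the 16 ratios in the wild type, 13 were higher in hypoxia. That direction depends on which gene was put on top, mostly the one with the lower level in air.

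Of 27 further genes of these pathways fixed as a list, 25 were tested in wild-type cells. Of these, 11 were higher in hypoxia by limma, compared with 18.1% of all genes, and 11 by edgeR on the recovered reads. Without the adjustment and the fold threshold, 19 were higher and 2 lower at the 0.05 level. The share of all genes at that level was not counted. By another measure, 82.7% of all genes did not overlap between air and hypoxia. The 19 and 2 genes therefore cannot be read as particular to this list. In set4Δ cells 26 were tested, of which 12 were higher and 1 lower, compared with 18.6% and 15.5% of all genes. Their median log2 fold change was 0.85 in the wild type, against 0.0066 over all genes. ACS1, the acetyl-CoA synthetase that is repressed by glucose, had a log2 fold change of 4.70 (SE 0.22, adjusted p = 4.92e-07) in wild-type cells, and ACS2, the form needed on glucose, had one of 1.35 (SE 0.064, adjusted p = 5.12e-07). Among the genes of glycerol, GPP2, the second glycerol phosphatase, had a log2 fold change of 1.80 (SE 0.14, adjusted p = 8.15e-06), DAK2, a dihydroxyacetone kinase, one of 2.75 (SE 0.26, adjusted p = 2.06e-05) and GCY1, a glycerol dehydrogenase, one of 1.77 (SE 0.27, adjusted p = 0.000374). Of the regulators, ADR1, the activator of ADH2, was higher (2.27, SE 0.25, adjusted p = 4.85e-05). GCR1, the activator of glycolytic genes, had a log2 fold change of -0.86 (SE 0.092, adjusted p = 4.50e-05) in wild-type cells, under the fold threshold, and of -1.02 (SE 0.095, adjusted p = 2.97e-05) in set4Δ cells, where it was the 1 gene of the list that limma called lower and edgeR did not call it. TYE7, another activator of glycolytic genes, had log2 fold changes of 0.85 (SE 0.084, adjusted p = 2.86e-05) and 0.94 (SE 0.082, adjusted p = 2.00e-05), under the fold threshold in each genotype.

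The second question was whether loss of SET4 changed these genes. In air, limma called 0 of the 36 genes at an adjusted p of at most 0.05, compared with 0.0516% of 5814 genes, 0 passed the 0.05 threshold before adjustment, compared with 4.82% of all genes, and edgeR's test on the recovered reads called 0. The log2 fold changes of set4Δ over wild type in air lay between -0.16 (PDC5) and 0.22 (HXK1), with a median of 0.029. The groups did not overlap for 1 of the 36 genes, GPM3, against 9.81% of all genes.

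In hypoxia, 1 of the 36 genes, PDC6, was called lower in set4Δ than in wild-type cells and 0 were called higher, compared with 1.21% of 5875 genes called in either direction. PDC6 was at 504, 595 and 486 in the wild-type and 340.3, 364 and 319 in the set4Δ libraries, which did not overlap (log2 fold change -0.62, SE 0.10, adjusted p = 0.0457). The call lay close to the threshold: it was lost without any one of the 6 libraries (log2 fold change between -0.68 and -0.53, adjusted p between 0.0662 and 0.218) and with no trend in the variance, while edgeR's test on the recovered reads also called 1 gene lower, PDC6. Without adjustment, 4 of the 36 genes were lower and 1 higher at the 0.05 level, compared with 13.2% of all genes. The 4 were HXK2, PDC1, PDC5 and PDC6, and the 1 was PYK2, and none but PDC6 passed the adjusted threshold. PYK2 was at 5524, 5074 and 3643 in the wild type and 6535, 6159 and 5956 in set4Δ (log2 fold change 0.42, SE 0.16, adjusted p = 0.338), and PDC1 was at 115701, 96912 and 126018 and 79698, 82505 and 80033 (log2 fold change -0.47, SE 0.18, adjusted p = 0.347). The groups did not overlap for 8 of the 36 genes, against 19.7% of all genes.

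Among the isoenzyme ratios, 6 of 19 did not overlap between set4Δ and wild type in hypoxia and 1 of 19 did not in air. For single genes the shares were 19.7% and 9.81%. A ratio is another measure than a single gene, and the share over ratios of other gene pairs was not counted. Several of the isoenzyme ratios share a gene. The ratio of HXK1 to HXK2, given above, was higher in all hypoxic set4Δ libraries than in any hypoxic wild-type library, as was that of GLK1 to HXK2, at 5.35, 5.52 and 6.08 against 4.46, 4.14 and 4.46. The ratio of GPM2 to GPM1 was 0.0277, 0.0280 and 0.0284 against 0.0215, 0.0217 and 0.0197, that of GPD1 to GPD2 was 2.19, 2.12 and 2.88 against 1.89, 1.47 and 1.68, and that of TDH2 to TDH3 was 0.170, 0.187 and 0.152 against 0.129, 0.129 and 0.139. ALD4 to ALD6 went the other way, at 0.390, 0.423 and 0.436 against 0.505, 0.437 and 0.469. These ratios are descriptions and were not tested.

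The genes that fell in hypoxia had a larger median spread between hypoxic libraries than those that rose. Of the 16 genes lower in both genotypes, 14 were highest in library 3 among the hypoxic wild-type libraries and 14 were highest in library 3 among the hypoxic set4Δ libraries. Their summed level was 591292, 422492 and 770164 normalized counts in hypoxic wild-type cells and 352094, 364321 and 585867 in the hypoxic set4Δ libraries. Library 3 was thus the highest in each genotype, as it was for the slow growth and stress genes, and the part of that difference in the values of set4Δ was not tested. The median standard deviation on the log2 scale among the 3 hypoxic wild-type libraries was 0.45 for these 16 genes, 0.17 for the 13 genes higher in both genotypes and 0.13 over all genes. Among the 16, HXK2 and GPP1 had standard deviations of only 0.13 and 0.15, while the highest values of the 36 genes were those of ENO1 (1.15) and TDH1 (0.95), which are in neither set. All 16 had a log2 fold change below 0 between set4Δ and wild type in hypoxia, with a median of -0.38, against -0.0063 over all genes, but most of them were highest in the same hypoxic library, so they are not 16 separate observations.

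**Figure D4:**
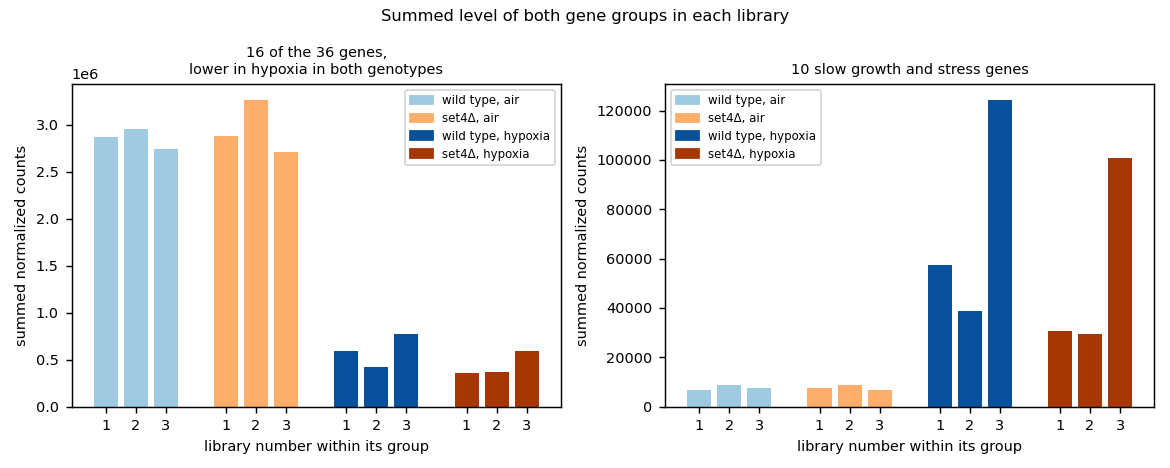
Summed normalized counts (y axes, from 0) in each of the 12 libraries (x axes, library number within its group) of the 16 genes that were lower in hypoxia in both genotypes (left) and of the 10 genes of the slow growth and stress list (right). Hypoxic library 3 has the highest bar of its group for both sets of genes in each genotype.

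Leaving out hypoxic library 3 of both genotypes, a setting chosen after the data were seen, left 2 libraries in each hypoxic group and raised the share of all genes called between the genotypes to 6.61%. Under it 4 of the 36 genes were lower in set4Δ and 0 higher: PDC6 (-0.64, SE 0.11, adjusted p = 0.0178), TDH1 (-1.23, SE 0.24, adjusted p = 0.0271), TDH3 (-0.88, SE 0.19, adjusted p = 0.0364) and ADH2 (-0.43, SE 0.078, adjusted p = 0.0214), each as the log2 fold change. With all libraries the log2 fold change was -0.97 (SE 0.71, adjusted p = 0.644) for TDH1, -0.79 (SE 0.38, adjusted p = 0.44) for TDH3 and -0.39 (SE 0.25, adjusted p = 0.584) for ADH2.

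**Figure D5:**
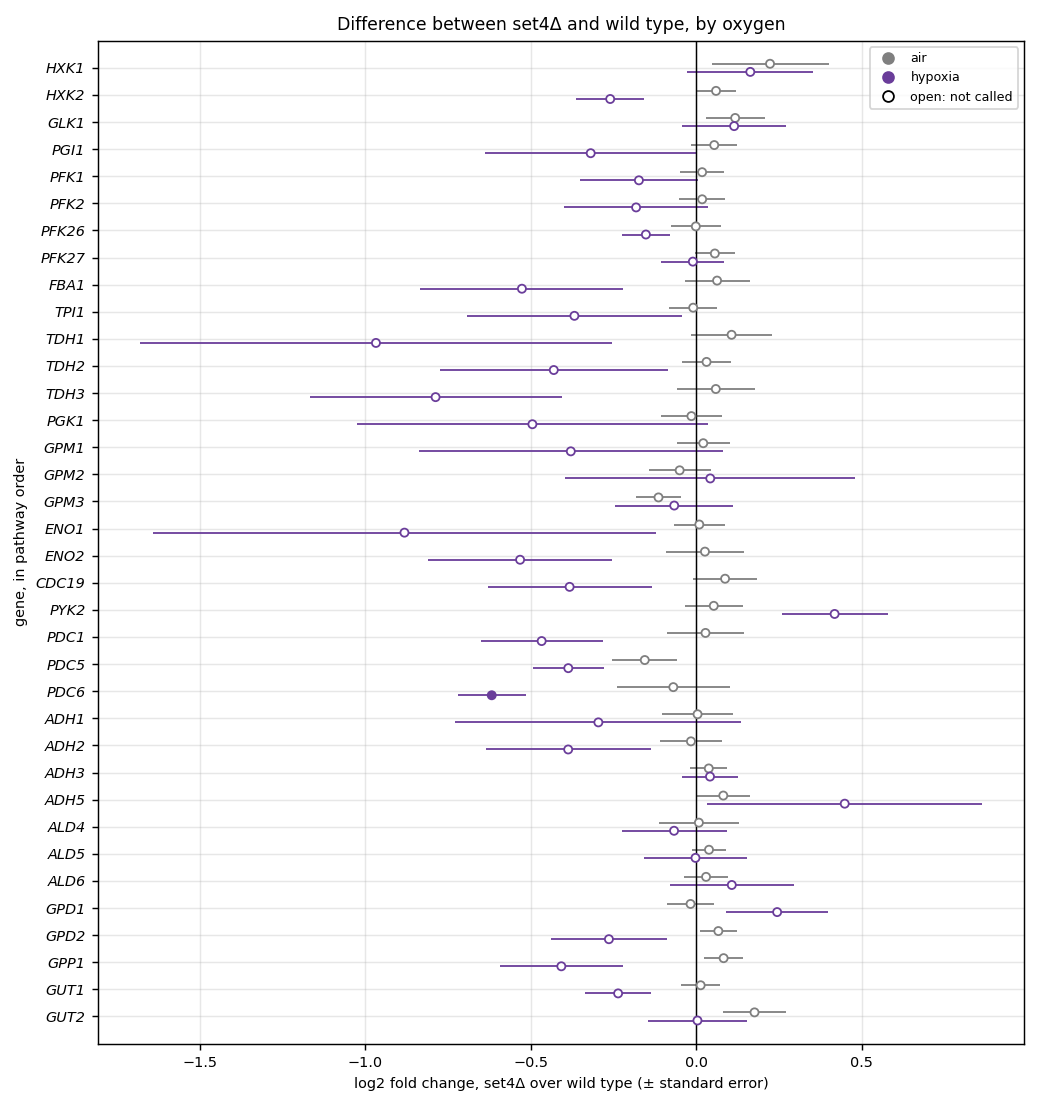
Log2 fold change between set4Δ and wild type (x axis, with its standard error) of each of the 36 genes (y axis, in pathway order) in air and in hypoxia. All points in air lie close to 0 and are open, and in hypoxia PDC6 is the 1 filled point, while TDH1, ENO1 and TDH3 lie farther to the left with wide error bars.

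The third question was whether the response to hypoxia differed between the genotypes, tested as an interaction over the 12 libraries. Limma called 0 of the 36 genes, compared with 1.36% of 6025 genes, 4 passed the 0.05 threshold before adjustment (11.9% of all genes), and edgeR's test on the recovered reads called 0. These 4 were HXK2, PDC6, GPP1 and GUT1, with log2 differences of set4Δ minus wild type of -0.33 (SE 0.12, adjusted p = 0.28), -0.56 (SE 0.20, adjusted p = 0.272), -0.50 (SE 0.21, adjusted p = 0.37) and -0.26 (SE 0.11, adjusted p = 0.376). For TDH1, called in the wild type only, the difference was -1.09 (SE 0.79, adjusted p = 0.678), and for ENO1, called in set4Δ only, it was -0.90 (SE 0.83, adjusted p = 0.759). Without hypoxic library 3 of both genotypes, 4.66% of all genes and 2 of the 36 genes were called, TDH1 at -1.35 (SE 0.30, adjusted p = 0.024) and TDH3 at -0.95 (SE 0.24, adjusted p = 0.0464).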

How the data were processed

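RNA from whole cells was depleted of ribosomal RNA, and libraries were made with a stranded kit. The submitters' processing notes name Trimmomatic 0.36, STAR 2.5.2b, Subread 1.5.2 with featureCounts, and DESeq2; the genome build, the strand setting and the handling of reads that match several places are not stated in the labels or the methods. The deposited signal values are gene counts that the authors divided by size factors, separately for each of 4 tables of 6 libraries. The same tables hold the authors' fold changes, p-values and local false discovery rates, which were not used. In the table of cells in air, 1 wild-type column was out of step with the gene names, so its values were taken from the table of the wild-type response. Libraries are numbered as in the tables of the hypoxia responses. Dividing each column by the value of 1 read gave whole reads (within 0.05) for 100% of values, from which depth was computed.

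Values in the text are normalized counts of the 12 libraries on a common scale, and levels per kb use the coding length. Tests used limma 3.58.1 in R 4.3.3 on log2(value + 1) within each table, with a trend in the variance, keeping genes whose mean reached 10 in 1 or both groups. P-values were adjusted by the Benjamini-Hochberg method over all genes, called at 0.05, for the hypoxia responses with a log2 fold change of 1 or more in size as well. Log2 fold changes are on that scale and understate changes of low genes. The script was tested on simulated data. edgeR 4.0.16 was run on the recovered reads as an added alternative, with leaving out hypoxic library 3 of both genotypes, both chosen after seeing the data. Positions and sequences come from RefSeq R64, with a window chosen after the files were seen. The members and lists were chosen with earlier results of these data known. All 36 genes are described, in pathway order. Of the genes deleted in BY4741, URA3, LEU2 and MET17 were not found by name among the 6025 genes used here. HIS3, of which BY4741 keeps a part, was at 1214 to 1340.4 normalized counts in air and 2609.8 to 4708 in hypoxia. The other alpha-factor gene on the marker list was not found by name among the 6025 genes either.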

Additional observations from a re-analysis of the deposited data

How the results depend on the processing

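The counts of genes that differed between air and hypoxia changed little with the processing. In wild-type cells 14 or 15 genes were higher and 15 to 17 lower under every setting but leaving out single libraries, with another pseudocount (0.5 or 5), no minimum mean or one of 50, libraries scaled to equal totals, quantile normalization, no trend in the variance, a fit over all 12 libraries, no fold threshold, or edgeR. Without single libraries 13 to 15 were higher and 16 to 17 lower. In set4Δ cells 13 or 14 were higher and 16 to 19 lower, and 11 to 13 and 16 to 17 without single libraries. No called gene reversed its direction. Quantile normalization moved the median log2 fold change of all genes to -0.14 in wild-type and -0.13 in set4Δ cells, and equal totals to 0.091 and 0.082; of all 36 genes only PFK1 (quantile) and ADH2 (equal totals) changed their calls with these scalings. In hypoxia the count of genes lower in set4Δ was 1, and became 0 with no trend in the variance, 0 without any one of the 6 libraries, 4 without hypoxic library 3 of both genotypes and 5 with the replicate block. The difference of the responses went from 0 to 2 genes lower without library 3 of both genotypes. Apart from the construction of these fits with fewer libraries, the cause was not tested.

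The replicate number used as a block left the other counts as they were, at 14 higher and 16 lower in wild-type cells. It made PDC6, TDH1, TDH3, ENO1 and ADH2 lower in set4Δ in hypoxia, 5 of the 36 genes, while the share of all genes called there went from 1.21% to 7.42%. Deviations of libraries with the same number correlated at 0.026, 0.66 and 0.71 in that comparison and between -0.18 and 0.17 in the other 3, and hypoxic set4Δ library 1 correlated best with a wild-type library of another number (0.68), so the numbers were not taken as pairs. Of 3132 combinations of a gene, a comparison and a setting, 19 lost a call and 14 gained one. Of the 2141 that were not called under either setting, 113 had values of opposite sign. All 532 isoenzyme ratio changes recomputed with a pseudocount of 1 or without a library moved by less than 1 SD.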

Other observations

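The genes that rose among the isoenzymes were set beside 12 genes that glucose represses, a list that holds none of the 36 genes. All 12 were higher in hypoxia than in air by value, and 11 of 12 passed the test and the fold threshold in wild-type cells and 10 of 12 in set4Δ cells, with a median log2 fold change of 2.81 in wild-type and 2.46 in set4Δ cells, against 0.0066 and 0.0081 over all genes, of which 18.1% and 18.6% were called higher. ADY2, an acetate transporter, had a log2 fold change of 5.35 (SE 0.24, adjusted p = 4.00e-07) in wild-type cells, and CAT8, an activator of gluconeogenic genes, had one of 3.83 (SE 0.17, adjusted p = 3.38e-07). PCK1, phosphoenolpyruvate carboxykinase, had a log2 fold change of 4.59 (SE 0.22, adjusted p = 5.19e-07), and FBP1, fructose bisphosphatase, which runs opposite to phosphofructokinase, had one of 1.28 (SE 0.16, adjusted p = 0.000124). SUC2, invertase, was called in the wild type (1.32, SE 0.20, adjusted p = 0.000361) and lay just under the fold threshold in set4Δ (0.98, SE 0.097, adjusted p = 3.97e-05). By limma 0 of the 12 differed between the genotypes in hypoxia (1.21% of all genes), with 0 past 0.05 before adjustment (13.2% of all genes) and 0 by edgeR.

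Of the 10 slow growth and stress genes, 9 were higher in hypoxia in wild-type cells and 8 in set4Δ cells, compared with 18.1% and 18.6% of all genes, with median log2 fold changes of 2.88 and 2.02. HSP12, which encodes a membrane-protecting stress protein, had a log2 fold change of 6.40 (SE 0.37, adjusted p = 1.31e-06) in wild-type and 4.92 (SE 0.45, adjusted p = 2.56e-05) in set4Δ cells, and SNZ1, a gene of stationary phase and vitamin synthesis, had values of 4.26 (SE 0.37, adjusted p = 1.36e-05) and 4.13 (SE 0.57, adjusted p = 0.00026). Between set4Δ and wild type in hypoxia, limma called 0 of the 10 (1.21% of all genes), 2 passed the 0.05 threshold before adjustment (13.2% of all genes) and edgeR called 0.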
